A study of Mus musculus with 30 samples.

Results

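The Eph receptors and their ligands, the ephrins, were followed through the stress response of mouse embryonic fibroblasts (MEFs). The 10 genes described are Epha2, Epha3, Epha4, Epha7, Ephb2, Ephb3 and Ephb4, which encode receptors, and Efna1, Efnb1 and Efnb2, which encode ephrins. They were chosen by name, with their ratios on these arrays known, so their values are a description and carry no test. All 10 were found among the 29273 gene names of the array, where 16 of 41174 probes read them.

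Total RNA was measured on 30 2-colour arrays, 2 for each of 15 groups of immortalised MEFs in exponential growth, and every array compared 1 culture, labelled with Cy5, with the same pool of 2 untreated wild type cultures, labelled with Cy3. Wild type MEFs were stressed with anisomycin (25 ng/ml, 45 min), an inhibitor of protein synthesis, with the cytokine TNFα (100 ng/ml, 45 min) or with 100 mM NaCl for 45 min, 2 h or 8 h. The same 5 stresses were repeated in wild type MEFs treated with SB203580, an inhibitor of the stress-activated kinases p38α and p38β, and a further wild type group received SB203580 alone; the treatment protocol gives 10 µM for 30 min before the stress, whereas the sample titles give 10 mM and 2 h. The p38α-/- MEFs, a knock out line of immortalised cells, were untreated or received anisomycin for 45 min, TNFα for 45 min or NaCl for 2 h. No array held untreated wild type cells in Cy5 and the dyes were never swapped, so an offset of a probe between the dyes cannot be told apart from a difference from the pool, whereas it cancels in a difference between 2 groups. The array files give a scan date, and arrays of 1 date are called a session here. All wild type first arrays were scanned on 1 date, the wild type second and p38α-/- first arrays on another, and the p38α-/- second arrays on 2 more. For the genotypes a comparison within 1 session therefore exists only between the second wild type and the first p38α-/- array.

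Eph receptors are receptor tyrosine kinases that are activated by ephrins on the surface of a neighbouring cell, and the ephrin can pass a signal back into the cell that carries it. Ephrins of the A class are held in the membrane by a lipid anchor, ephrins of the B class cross it, and receptors of each class mostly bind ephrins of the same class, with EphA4 among the receptors that also bind the other. Signals from both sides reach small GTPases and the actin cytoskeleton, and fibroblasts use the system to repel, adhere to or move past their neighbours.

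Epha2 and Efnb2 were the members with a group mean at 2-fold or more above the pool on the brightest probe of the gene, and the bases upstream of their transcription starts are shown for that reason, from RefSeq on GRCm38.p6 and read 5′ to 3′ towards the gene. The Epha2 window is chr4:141300971-141301220 on the + strand and the Efnb2 window chr8:8661243-8661492 on the - strand, each of 250 bases that end just before the start of the gene. Capitals mark a match to a motif that transcription factors of stress-responsive genes bind.
Epha2: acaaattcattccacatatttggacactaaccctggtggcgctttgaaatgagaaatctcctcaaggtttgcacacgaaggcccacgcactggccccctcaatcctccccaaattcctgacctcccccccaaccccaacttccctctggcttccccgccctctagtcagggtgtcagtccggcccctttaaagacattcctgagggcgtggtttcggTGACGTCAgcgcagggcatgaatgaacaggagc
Efnb2: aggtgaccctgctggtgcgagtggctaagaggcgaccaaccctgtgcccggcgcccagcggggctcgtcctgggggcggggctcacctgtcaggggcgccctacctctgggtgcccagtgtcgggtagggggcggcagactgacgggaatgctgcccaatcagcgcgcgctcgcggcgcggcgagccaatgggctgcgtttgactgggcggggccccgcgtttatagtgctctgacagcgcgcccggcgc
The letters searched on both strands were TGANTCA (AP-1), TGACGTCA (the cAMP response element, CRE), GCGGGGGCG (EGR) and the CArG box, which do not overlap one another in these windows. The Epha2 window held 1 CRE, which began at position -33 relative to the start of the gene, and the Efnb2 window held none of the motifs. None of the other members had a match in its windows, 12 start sites over the 10 genes in all. Of 32851 windows of this length in the RefSeq table, 6.75% held the AP-1 letters, 1.55% the CRE, 2.57% the EGR letters and 1.47% a CArG box. A match is a string of letters and not a measured site, and its absence says only that these letters are not in the window.

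The values below are log2 ratios of a culture to the pool for the brightest probe of a gene, given for the first and then the second array of a group. The software of the scanner marked some spots as outliers for uneven pixels or for disagreeing with replicate spots, and means were taken without them. Epha2, Epha3 and Efnb1 had no marked spot, whereas Ephb3 was marked on 20 of 30 arrays, Efnb2 on 15 and Efna1 on 29, which left 91 of 150 pairs of a member and a group with 2 usable arrays. A mean of at least 2-fold above the pool was found in 14 of these 91 pairs, 12 for Epha2 and 2 for Efnb2, where 1.90% of all gene and group pairs passed the same limit, and no member mean was 2-fold below the pool, a limit that 1.32% of all pairs passed. With the marked spots kept, 15 of 150 pairs were 2-fold above, against 1.37% of all pairs, and 1, Ephb3 with SB203580 and NaCl for 45 min, was 2-fold below, against 1.48%. The ratios chose the members, so nothing is read from these counts. The nearest means inside and outside the upper limit were 1.05 ± 0.34 (SD, n = 2) for Epha2 with SB203580 and TNFα and 0.93 ± 0.27 (SD, n = 2) for Epha2 with SB203580 and NaCl for 8 h.

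**Figure D1:**
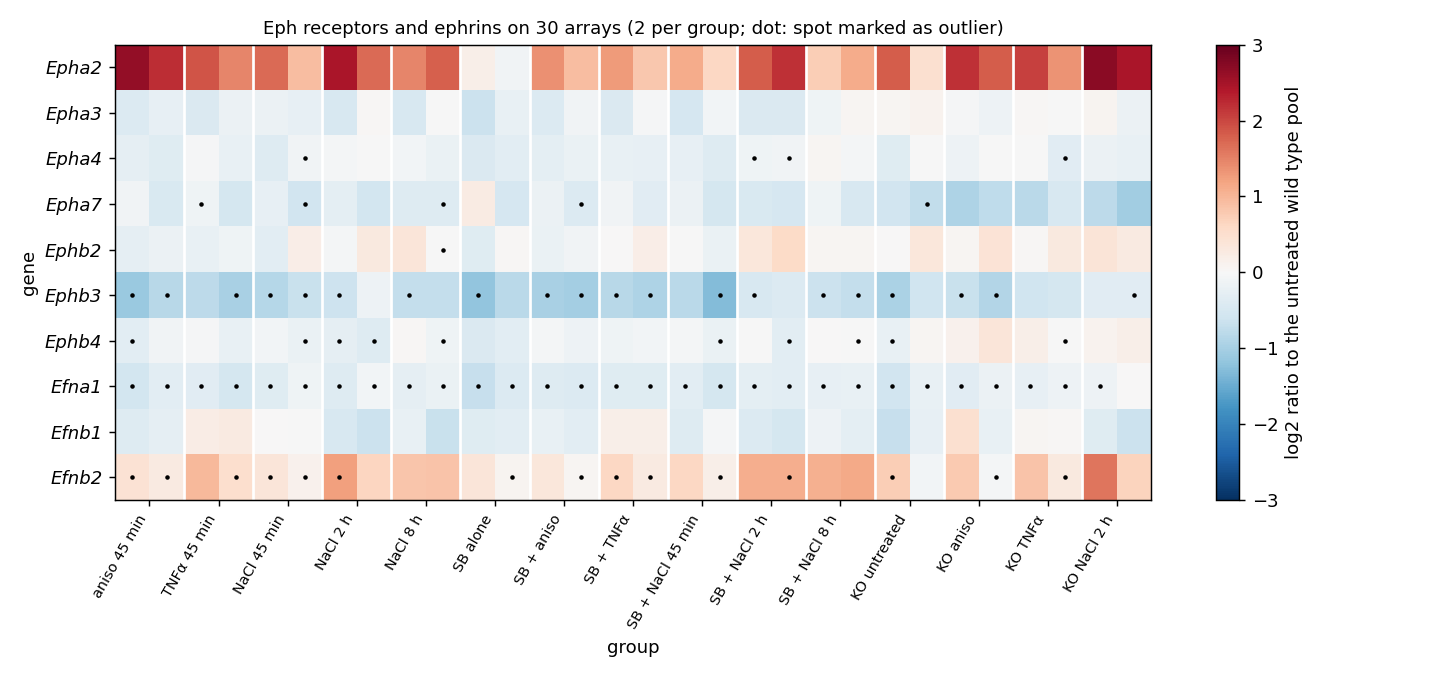
Log2 ratio to the untreated wild type pool of the brightest probe of each of the 10 genes (rows) on the 30 arrays (columns, 2 per group; SB, SB203580; KO, p38α-/-), with a dot where the spot was marked as an outlier. Epha2 is red in every group but SB203580 alone, Efnb2 is red at the longer NaCl times and Ephb3 is blue on all 30 arrays.

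EphA2, a receptor of ephrin-A ligands that is also known to signal without ligand in migrating and transformed cells, gave the largest ratios of the family. Its log2 ratio was 2.64 and 2.23 with anisomycin, 1.89 and 1.48 with TNFα, and 1.69 and 0.92 with NaCl for 45 min. NaCl gave 2.44 and 1.71 at 2 h, and 1.46 and 1.80 at 8 h. All 10 arrays of stressed wild type MEFs were above the pool, with a group mean of 2.43 ± 0.29 (SD, n = 2), a 5.41-fold difference, with anisomycin and of 1.31 ± 0.54 (SD, n = 2), a 2.47-fold difference, after 45 min of NaCl. SB203580 alone gave 0.17 and -0.11, on either side of the pool. Its mean of 0.03 ± 0.20 (SD, n = 2) was the lowest of the 15 groups for Epha2.

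With SB203580 before the stress, Epha2 stayed above the pool and was in most comparisons nearer to it than with the stress alone. Its ratio was 1.38 and 0.92 with SB203580 and anisomycin, 1.29 and 0.81 with TNFα, and 1.12 and 0.62, 1.81 and 2.20, and 0.74 and 1.12 with NaCl for 45 min, 2 h and 8 h. The arrays with and without SB203580 did not overlap for anisomycin, TNFα and 8 h of NaCl, where the difference in log2 ratio was -1.29, -0.64 and -0.70. They overlapped for NaCl at 45 min, with a difference of -0.44, and at 2 h, with a difference of -0.07. Between arrays scanned in the same session Epha2 was lower with SB203580 in 9 of 10 pairs, and the exception was the second pair of 2 h of NaCl, 0.49 higher. The anisomycin difference was the only one of a member at 2-fold or more, where 0.338% of all genes were at least 2-fold lower and 0.252% at least 2-fold higher. With another background correction or the series matrix it was -1.32 each. Against SB203580 alone, a difference in which an offset between the dyes cancels, Epha2 was higher by 1.12 with SB203580 and anisomycin, 1.02 with TNFα, and 0.84, 1.97 and 0.90 with NaCl for 45 min, 2 h and 8 h, and the arrays did not overlap in any of the 5 comparisons. With marked spots kept, 4, 5, 2, 6 and 9 of the 10 members were higher without overlap in these comparisons. The only member lower without overlap was at 2 h of NaCl. SB203580 alone had the lowest member median of the 15 groups, -0.36, so nothing particular to Epha2 is read from the missing overlap.

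In p38α-/- MEFs Epha2 was above the pool on all 8 arrays, without stress as well. The untreated cells gave 1.81 and 0.48, and the 2 arrays were further apart than those of any other group. Their ratio was 2.20 and 1.81 with anisomycin, 2.06 and 1.34 with TNFα and 2.70 and 2.44 with NaCl for 2 h. Against untreated p38α-/- MEFs the arrays with NaCl did not overlap, at a difference of 1.42 ± 0.68 (SE), and those with anisomycin, 0.86 ± 0.70 (SE), and TNFα, 0.55 ± 0.76 (SE), did. Between p38α-/- arrays of 1 replicate number, Epha2 was higher with the stress in 6 of 6 pairs. The differences were 0.39 and 1.34 with anisomycin, 0.25 and 0.86 with TNFα and 0.89 and 1.96 with NaCl. These 6 pairs share the 2 untreated arrays, so they are not independent. The second TNFα array was scanned in another session than the second untreated array. For the other pairs the replicate number follows the session, so a pairing of cultures cannot be told apart from the session. Against wild type MEFs under the same stress the difference was -0.43 for anisomycin, 0.01 for TNFα and 0.49 for NaCl; within the shared scanning session it was -0.02, 0.59 and 0.99. The part of the session in the anisomycin difference was not tested. Ordered by their means, the 15 groups ran from p38α-/- MEFs with NaCl, at 2.57 ± 0.18 (SD, n = 2), through wild type MEFs under anisomycin down to SB203580 alone, and the arrays of 13 of 14 neighbours in that order overlapped. The exception was the last step, from SB203580 with 45 min of NaCl to SB203580 alone.

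**Figure D2:**
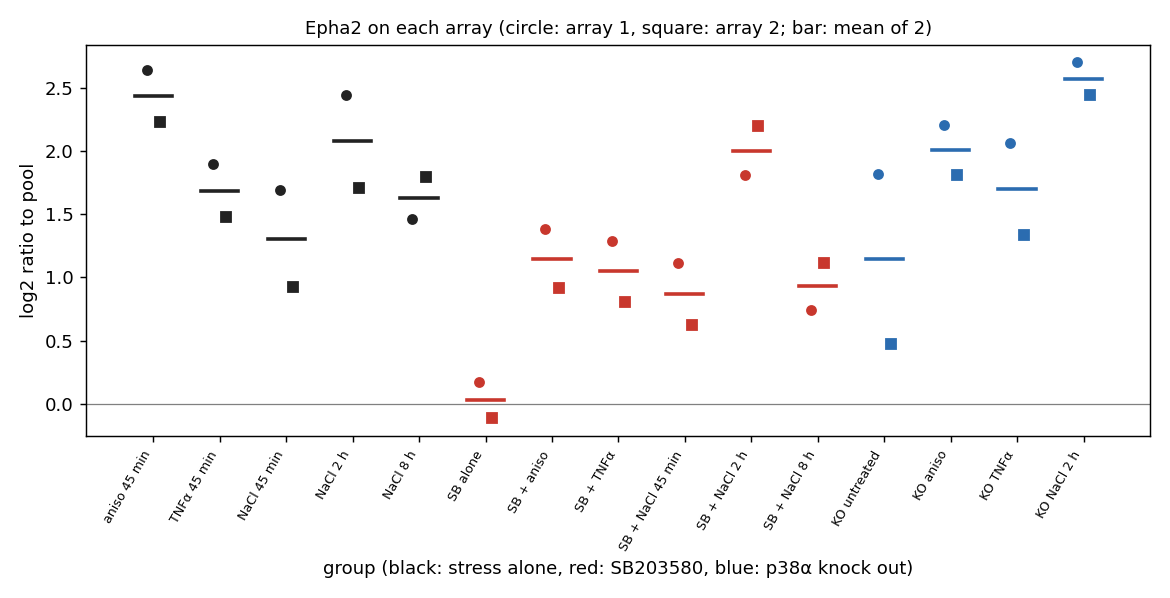
Epha2 log2 ratio to the pool (vertical axis) on the first (circle) and second (square) array of each of the 15 groups, with the mean of 2 as a bar; black, stress alone in wild type MEFs; red, with SB203580; blue, p38α-/- MEFs. SB203580 alone lies at 0.17 and -0.11, and the 5 stresses of wild type MEFs between 0.92 and 2.64.

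The other A-class receptors moved little on their brightest probes. Epha3, a receptor known from axon guidance and heart development, lay between -0.65 and 0.09 over the 30 arrays with a median of -0.18. It was between -0.65 and 0.06 (median -0.25) on the 22 wild type arrays and between -0.17 and 0.09 (median 0.02) on the 8 p38α-/- arrays, of which the highest exceeded every wild type array. The wild type values differed by array: the first arrays were below the second ones in most groups, for instance -0.48 and 0.03 with NaCl for 2 h. A second, dimmer Epha3 probe, well above background in Cy5 on 16 of 30 arrays, gave 1.12 ± 0.22 (SD, n = 2) in untreated p38α-/- MEFs and 1.16 ± 0.02 (SD, n = 2) with NaCl in these cells, but also 1.08 ± 0.48 (SD, n = 2) in wild type MEFs with SB203580 and 2 h of NaCl.

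Epha4, a receptor that binds both ephrin classes and is known for repulsion of motor axons, lay between -0.43 and 0.06 on its brightest probe with a median of -0.21 over the 30 arrays, marked spots included. A second probe, well above background on all 30 arrays, was higher than the brightest on all but 2 of them, by a median of 0.51. It gave 0.35 ± 0.02 (SD, n = 2) at 45 min of NaCl, 0.82 ± 0.56 (SD, n = 2) at 2 h and 0.58 ± 0.01 (SD, n = 2) at 8 h, against 0.12 ± 0.20 (SD, n = 2) with anisomycin and 0.10 ± 0.04 (SD, n = 2) with TNFα. It was 0.40, 0.42 and 0.79 with SB203580 at the same NaCl times and 1.27 ± 0.11 (SD, n = 2) in p38α-/- MEFs after 2 h of NaCl. The brightest probe gave -0.24, -0.03 and -0.15 at the 3 NaCl times, so the sign of the Epha4 ratio to the pool rests on the probe taken. Against SB203580 alone, the means with SB203580 and NaCl for 45 min and 8 h were higher on both probes. They were -0.31 and 0.003 against -0.37 on the brightest, and 0.40 and 0.79 against -0.17 on the second. In p38α-/- MEFs the probes disagreed: untreated and with NaCl, the second gave 0.32 and 1.27, the brightest -0.19 and -0.20.

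Epha7, known for shaping neural tube and cortical connections, was below the pool on 29 of 30 arrays. Its brightest probe gave between -0.57 and 0.26 (median -0.38) on the wild type arrays and between -1.05 and -0.48 (median -0.77) on the p38α-/- arrays, marked spots included. The p38α-/- arrays were lowest with NaCl, -0.77 and -1.05, and with anisomycin, -0.92 and -0.76, and neither pair overlapped wild type MEFs under the same stress, at differences of -0.50 and -0.56. Within the shared scanning session these were -0.23 and -0.46. The second Epha7 probe lay between -0.26 and -0.09 in the 4 p38α-/- groups and between -0.23 and 0.33 in the wild type groups. Its p38α-/- and wild type means were -0.09 and -0.11 with anisomycin and -0.26 and -0.20 with NaCl for 2 h. It therefore did not show genotype differences of the size on the brightest probe.

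Among the B-class receptors, Ephb2, which sorts cells along the intestinal crypt and guides axons, lay on both sides of the pool, between -0.36 and 0.57 (median 0.03). It was -0.26 and -0.17 with anisomycin, -0.23 and -0.13 with TNFα and 0.34 and 0.57 with SB203580 and 2 h of NaCl, its highest group. All 8 p38α-/- arrays were above the pool, between 0.02 and 0.42. With anisomycin and TNFα the p38α-/- arrays were above and the wild type arrays below the pool, at differences of 0.46 and 0.35. Within the shared session these were 0.24 and 0.16. A second Ephb2 probe gave p38α-/- means of -0.15 untreated, -0.13 with anisomycin, 0.01 with TNFα and -0.07 with NaCl.

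Ephb3, which shares ligands with Ephb2, was below the pool on all 30 arrays, between -1.31 and -0.16 with a median of -0.75, marked spots included. Its ratio was nearest to the pool after 2 h of NaCl in each of the 3 sets of cells: -0.62 and -0.16 in wild type MEFs, -0.48 and -0.42 with SB203580 and -0.35 and -0.34 in p38α-/- MEFs. It was -1.17 and -0.81 with SB203580 alone and -0.96 and -0.59 in untreated p38α-/- MEFs, so where a matched group without stress existed, the arrays with 2 h of NaCl lay above it without overlap. This was not particular to Ephb3: of the 10 members, 6 lay above SB203580 alone and 4 above untreated p38α-/- MEFs without overlap. In each comparison 1 member lay below. Without marked spots neither comparison had 2 usable Ephb3 arrays on both sides. The wild type NaCl means were -0.76 at 45 min, -0.39 at 2 h and -0.70 at 8 h. No array of Ephb3 lay above the pool in any group, and an offset of the probe between the dyes cannot be told apart from a lower level than in the pool.

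Ephb4, the receptor that pairs with ephrin-B2 at the border of veins and arteries, stayed within -0.44 and 0.36 on its brightest probe (median -0.09). With marked spots kept, stressed p38α-/- MEFs lay above wild type MEFs under the same stress without overlap in all 3 comparisons, by 0.44 with anisomycin, 0.21 with TNFα and 0.47 with NaCl. Over all genes 24.6% of such pairs were higher without overlap. Within the shared session the p38α-/- and wild type arrays read 0.12 and -0.10 with anisomycin and 0.17 and -0.22 with TNFα. With NaCl the wild type spot of that session was marked. Without marked spots none of the 3 comparisons had 2 usable arrays on both sides. The second Ephb4 probe lay below the pool on all 30 arrays, and its means in these p38α-/- groups, -0.27, -0.16 and -0.18, lay above the wild type means of -0.32 and -0.28 with anisomycin and TNFα and below that of -0.09 with NaCl.

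**Figure D3:**
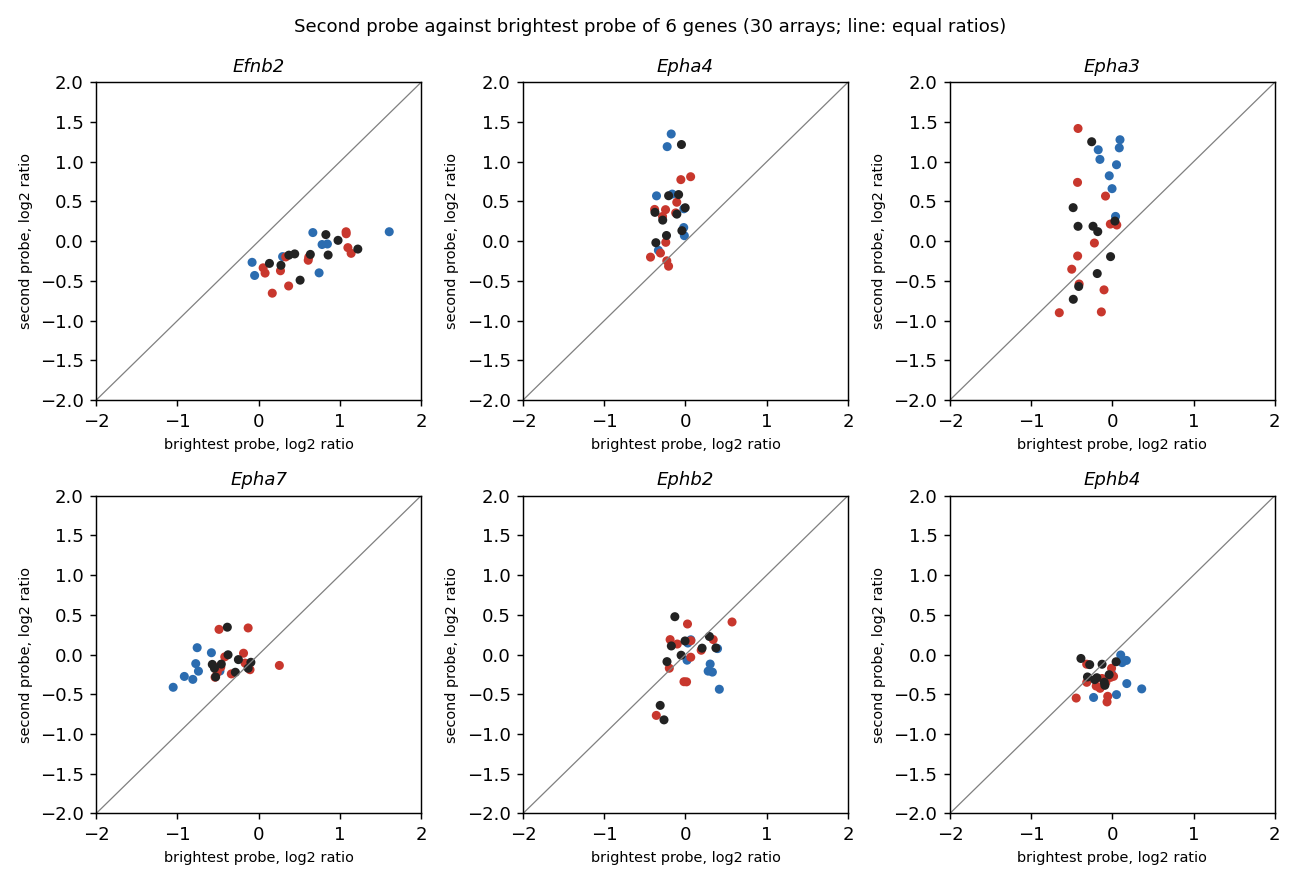
Log2 ratio of the second probe (vertical axis) against that of the brightest probe (horizontal axis) for the 6 genes read by 2 probes, with 1 point per array (30 arrays; black, stress alone; red, SB203580; blue, p38α-/-) and a line of equal ratios. The Efnb2 points all lie below the line and all but 2 of the Epha4 points above it.

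Of the ligands, Efnb2, a transmembrane ephrin known for marking arteries, was above the pool on 28 of 30 arrays, marked spots included. Its brightest probe gave 0.44 and 0.27 with anisomycin, 0.98 and 0.51 with TNFα, and 0.37 and 0.13 with NaCl for 45 min. At 2 h of NaCl its arrays read 1.22 and 0.64, at 8 h they read 0.83 and 0.86, so both later NaCl times lay above 45 min without overlap. With SB203580 the ratio was 1.08 and 1.10 at 2 h of NaCl, overlapping the arrays without it, and 1.08 and 1.14 at 8 h, above them by 0.27. It was 0.33 and 0.06 with SB203580 and anisomycin and 0.61 and 0.27 with SB203580 and TNFα, in both cases lower than without SB203580 on each array of the same number, though the groups overlapped. SB203580 alone gave 0.37 and 0.08. In p38α-/- MEFs the first array was far above the second, 0.74 and -0.08 untreated, 0.78 and -0.05 with anisomycin, 0.85 and 0.30 with TNFα and 1.61 and 0.67 with NaCl.

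Of these Efnb2 spots 15 of 30 were marked as outliers, among them the first array of 2 h of NaCl and both arrays of anisomycin and of NaCl for 45 min. With usable spots on both arrays, Efnb2 had a mean in 3 groups, 0.84 ± 0.02 (SD, n = 2) after 8 h of NaCl, 1.11 ± 0.04 (SD, n = 2) with SB203580 and 8 h of NaCl and 1.14 ± 0.67 (SD, n = 2) in p38α-/- MEFs with NaCl. A second Efnb2 probe was lower than the brightest on all 30 arrays, by a median of 0.82, and was marked on 28. It lay between -0.65 and 0.12, so it gave no mean at 2-fold, but across the 30 arrays it rose and fell with the brightest probe, with a Pearson r of 0.71 that describes arrays sharing 1 pool. Its highest means were 0.11 ± 0.01 (SD, n = 2) in p38α-/- MEFs with NaCl and 0.01 ± 0.12 (SD, n = 2) with SB203580 and 2 h of NaCl, and its lowest -0.48 ± 0.11 (SD, n = 2) with SB203580 alone.

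Efnb1, a transmembrane ephrin needed for the patterning of the skull, had usable spots on all 30 arrays and small values of both signs. It was 0.22 and 0.28 with TNFα and 0.18 and 0.17 with TNFα after SB203580, the highest means of the 15 groups. It was -0.38 and -0.27 with anisomycin and -0.37 and -0.32 with SB203580 alone. Its NaCl arrays read 0.01 and -0.02 at 45 min, -0.48 and -0.64 at 2 h and -0.23 and -0.67 at 8 h, so both later times lay below 45 min without overlap, at differences of -0.56 and -0.44. With SB203580 and NaCl it was -0.38 and -0.03, -0.40 and -0.53, and -0.14 and -0.29. TNFα with SB203580 lay above SB203580 alone by 0.52 ± 0.02 (SE), and in p38α-/- MEFs TNFα, 0.05 and 0.03, lay above the untreated cells, -0.70 and -0.25, by 0.51 ± 0.23 (SE). The 2 p38α-/- arrays with anisomycin, 0.48 and -0.23, had opposite signs, and within the shared session the first lay 0.75 above wild type MEFs.

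Efna1, a lipid-anchored ligand of Epha2 first known as a TNFα-responsive gene of endothelial cells, was marked on all arrays but 1, so it has no mean without marked spots. With them it was between -0.68 and 0.01, with a median of -0.32, and below the pool on 29 arrays. With TNFα it gave -0.33 and -0.52 in wild type MEFs, -0.36 and -0.37 after SB203580 and -0.24 and -0.15 in p38α-/- MEFs, against -0.68 and -0.41 with SB203580 alone. The TNFα arrays with SB203580 therefore lay above those of SB203580 alone, whereas the wild type TNFα arrays overlapped SB203580 alone. The highest Efna1 group was p38α-/- MEFs with NaCl, -0.15 and 0.01.

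**Figure D4:**
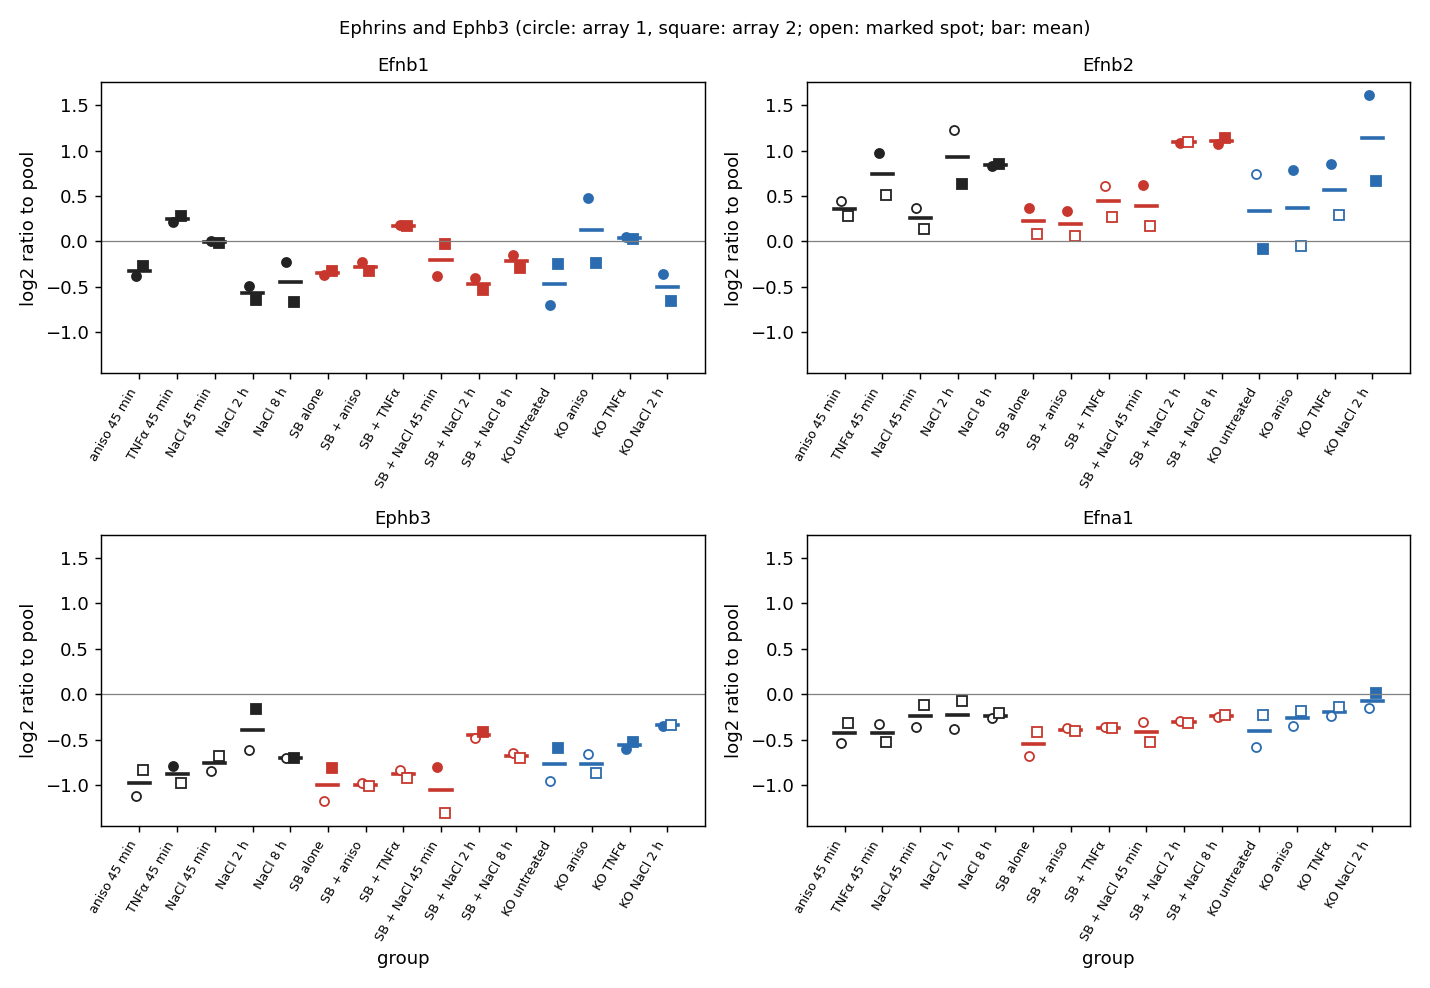
Log2 ratio to the pool (vertical axis) of the brightest probes of Efnb1, Efnb2, Ephb3 and Efna1 on the first (circle) and second (square) array of the 15 groups, with open symbols for spots marked as outliers and a bar for the mean of 2; black, stress alone; red, SB203580; blue, p38α-/-. Efnb2 and Ephb3 lie higher at 2 h than at 45 min of NaCl, while the Efnb1 means are highest with TNFα and lower at the later NaCl times.

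Over the 10 genes with marked spots kept, the arrays with SB203580 and the stress did not overlap those with the stress alone in 10 of 50 pairs of a gene and a stress, 4 higher and 6 lower, where 13.6% of all pairs were higher without overlap and 11.2% lower. Between p38α-/- and wild type MEFs under the same stress they did not overlap in 16 of 30 pairs, 11 higher and 5 lower, where 24.6% and 15.8% of all pairs did so. Without marked spots the counts were 9 of 25 for SB203580, 4 higher and 5 lower, where 15.2% and 11.4% of all pairs did so, and 11 of 16 for the genotypes, 6 higher and 5 lower, where 19.7% and 19.0% did. These counts include the ratios that chose the members, so nothing is read from them.

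For each of the 3 members with a mean in every group and the widest range of means, the named genes most like it were taken by Pearson's r over the 15 group means, among 4092 or 4093 genes with a range of at least 2-fold. All groups share the pool, so r is a description. Epha2, with a range of 2.54, was most like Ier5 (r = 0.80), an immediate early gene, Zfp36l1 (r = 0.79), which encodes a protein that promotes mRNA decay, and Smgc (r = 0.76). Without the 2 groups furthest from the Epha2 median these were 0.69, 0.76 and 0.63. Efnb1, with a range of 0.81, had Csf1, which encodes a growth factor of macrophages, and Dsg1a, which encodes a desmosomal cadherin, among the genes most like it (r = 0.74 for each). Without 2 groups these were 0.51 and 0.52. Epha3, with a range of 0.51 and a median SD of 0.17 within a group, was most like Sertad4, Lhfpl4 and Gabra6 (r = 0.83, 0.83 and 0.79). Without 2 groups each of these was 0.71.

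The rest of the family and the proteins that carry Eph and ephrin signals are not members and were tested with limma over all genes of the array, with Benjamini-Hochberg adjusted p under 0.05 against the pool. Such a call can hold an offset of the probe between the dyes, which the adjusted p does not measure. Of 12 further family genes 11 had a probe (Epha10 had none under that name). They were called in 8 of 101 pairs of a gene and a group above the pool and in 22 below, where 9.08% and 7.20% of all pairs were called. The count above was 14 with the series matrix and 5 with the mean of the probes of a gene, and the count below 13 with a term for the scanning session. A dimmer Efna5 probe, marked on 3 of 30 arrays, was not tested alone. On its brightest probe Efna5, an A-class ephrin that repels growing axons, accounted for all 8 calls above. It was 0.74 and 0.93 after 8 h of NaCl (0.84 ± 0.15 (SE), adjusted p = 0.000604 from limma) and 0.88 and 0.98 with SB203580 and 8 h of NaCl (0.93 ± 0.15 (SE), adjusted p = 0.000299 from limma), and it was called in all 4 p38α-/- groups, with means from 0.57 to 0.73.

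Efna2, another A-class ephrin, was lowest after 8 h of NaCl, -1.28 and -1.04 in wild type MEFs and -1.32 and -1.0 with SB203580 (-1.16 ± 0.12 (SE) each, adjusted p = 4.29e-06 and 7.11e-06 from limma), and fell by 0.67 between 2 h and 8 h (adjusted p = 0.0226 from limma). It was called below the pool in 8 of 14 groups. Ephb6, a receptor without kinase activity, was called in 13 of 15 groups, between -1.08 and -0.53, and not in the 2 wild type groups with NaCl for 2 h. The called groups included SB203580 alone (-0.79) and untreated p38α-/- MEFs (-1.08). Efnb3 was called in 1 group, wild type MEFs with anisomycin (-0.32 ± 0.09 (SE), adjusted p = 0.0467 from limma). No group was called for Epha1, Epha5, Epha6, Epha8, Efna3 or Efna4, whose tested means lay between -0.29 and 0.23, and Ephb1 had a usable spot on 1 array.

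**Figure D5:**
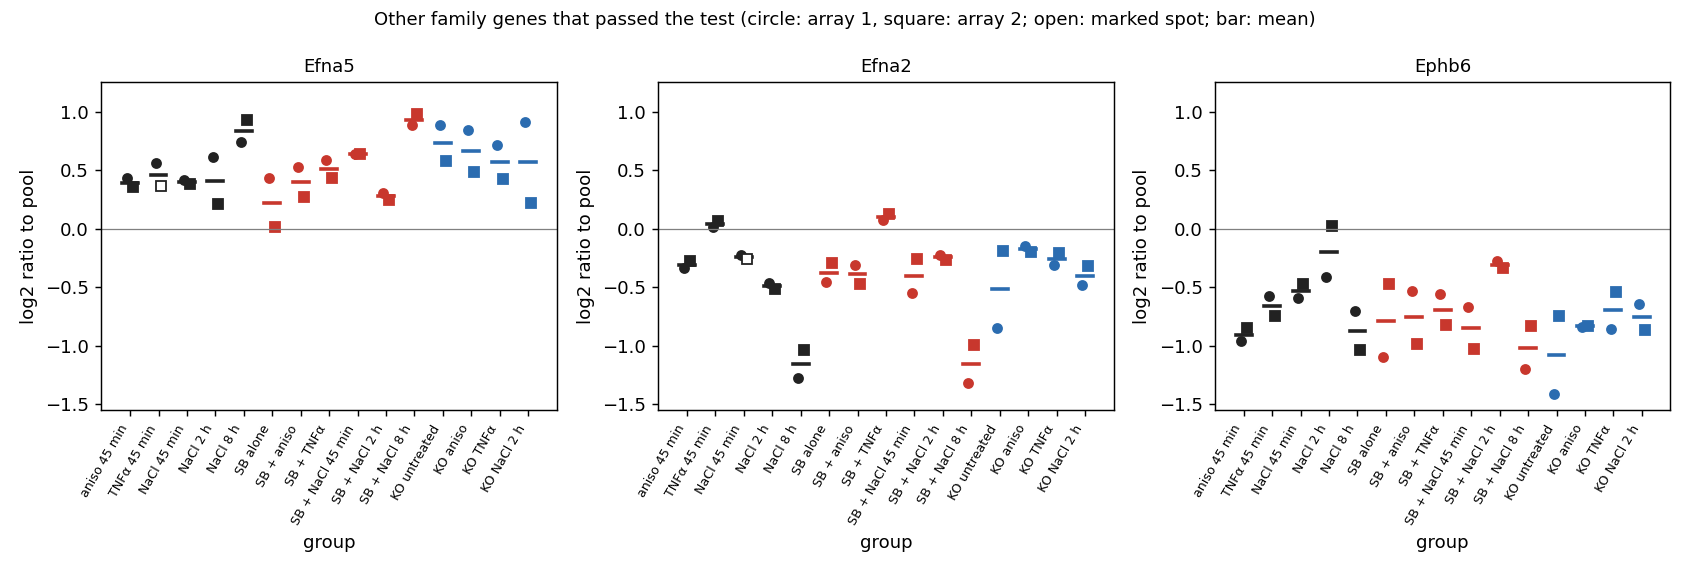
Log2 ratio to the pool (vertical axis) of Efna5, Efna2 and Ephb6 on the first (circle) and second (square) array of the 15 groups, with open symbols for marked spots and a bar for the mean of 2; black, stress alone; red, SB203580; blue, p38α-/-. Both Efna2 groups with 8 h of NaCl lie at a mean of -1.16, below all other groups.

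Of 46 signalling partners 44 had a probe, and they were called in 51 of 349 pairs of a gene and a group above the pool and in 36 below, over 26 genes, where 9.08% and 7.20% of all pairs were called. These counts were 125 and 124 with the series matrix and 89 and 143 with marked spots kept. Pak1, a kinase activated by Rac and Cdc42, was called below the pool in 9 wild type groups, with means from -1.95 to -0.95, among them all 5 stresses; after 8 h of NaCl its arrays were -0.22 and -1.67 (adjusted p = 0.0498 from limma). With SB203580 alone it was -2.35 and, on a marked spot, -2.11. Untreated p38α-/- MEFs gave -1.99 and, on a marked spot, -1.12 for Pak1. Its means in these cells were -0.72 with anisomycin, -0.67 with TNFα and -0.46 with NaCl. Sdcbp, which encodes syntenin, a scaffold that binds the tail of B-class ephrins, was 1.13 and 1.85 after 8 h of NaCl (1.49 ± 0.17 (SE), adjusted p = 0.000132 from limma). Acp1, a phosphatase that acts on Eph receptors, was -0.98 and -1.06 at that time (-1.02 ± 0.11 (SE), adjusted p = 8.42e-06 from limma). The adaptors Crk (0.92 ± 0.15 (SE), adjusted p = 0.000482 from limma) and Nck1 (0.88 ± 0.17 (SE), adjusted p = 0.00145 from limma) were above the pool after 8 h of NaCl as well. Without stress, Nck1 (0.85) and Sdcbp (0.81) were also called above the pool with SB203580 alone. Crk (0.62) and Sdcbp (0.64) were called above it in untreated p38α-/- MEFs. Acp1 was called only in groups with 8 h of NaCl. Tiam1, a Rac activator, was called above the pool in 13 groups, from 0.39 to 0.87, among them SB203580 alone (0.57) and untreated p38α-/- MEFs (0.87). The adaptor Grb10 was called above it in 6, among them the 4 p38α-/- groups. Mmp14, a membrane protease that cuts EphA2, was below the pool in the 4 p38α-/- groups, from -0.70 to -0.61.

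No related or partner gene passed limma's adjusted threshold for a difference between SB203580 with a stress and the stress alone, in 106 pairs of a gene and a stress of which 5 had an unadjusted p under 0.05, and 0.0408% of all pairs were called. None passed between p38α-/- and wild type MEFs under the same stress, in 80 pairs of which 10 had an unadjusted p under 0.05, and 0.664% of all pairs were called. With the replicate number within each genotype as a block, Mmp14 was called lower in p38α-/- MEFs with TNFα (-0.83, adjusted p = 0.0179 from limma) and NaCl (-0.85, adjusted p = 0.013 from limma). With the series matrix or with marked spots kept, Sdc2, a cell surface proteoglycan, was called lower in p38α-/- MEFs in all 3 comparisons, by log2 differences from -1.22 to -1.02.

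Mapk14, which encodes p38α, was below the pool on the 6 p38α-/- arrays with a usable spot, between -2.24 and -0.94, and on both marked ones. All 8 fibroblast markers looked at, collagens and vimentin among them, were well above background on all 30 arrays, but so were the 4 haematopoietic markers, 2 epithelial, 3 of 5 endothelial and 3 of 4 neural ones, so this limit does not tell cell types apart here.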

How the data were processed

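Total RNA of MEFs was measured on 30 2-colour Agilent arrays. The authors extracted the spot intensity of each dye using the Feature Extraction software of Agilent, for which the array files name release 8.1.1.1 and the submitters' processing notes 9.1. The deposited log10 ratio is that of processed Cy5 to Cy3 intensity after the dye normalization of that software. The authors also deposited a series matrix on a log2 scale, whose columns followed the arrays' own log2 ratios with slopes of 0.859 to 0.963 and had medians of -0.060 to 0.030; the study's methods speak of VSN-normalized data without saying that these are the series matrix. Per array 6.78% to 44.8% of spots were marked as outliers (median 16.0%), and 81.1% to 96.8% were well above background in Cy5.

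Log10 ratios were multiplied by log2 of 10. Control spots and marked spots were left out, spots of a probe were averaged, and the brightest probe was taken per gene name. limma 3.58.1 (R 4.3.3) fitted 15 group means with empirical Bayes moderation to all 30 arrays, each mean against 0 and differences between groups as contrasts, and adjusted p over all genes measured on both arrays (Benjamini-Hochberg). The pool is 1 control sample, so its own spread is left out, and replicates are 2 cultures per group as the labels number them, which limits the precision. The fit was tested on simulated data. Python 3.11.15 with numpy 2.4.6, pandas 2.3.3 and matplotlib 3.10.9 was used for the rest.

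The members and lists were chosen with earlier results of these data known. Genes named are the members, the rest of the family, the partners called most strongly, the 3 named genes most like each of 3 members (1 of them is not reported here), and Mapk14. Arrays of 1 replicate number were alike within a genotype: differences between the 2 arrays had a correlation over 0.1 for 55 of 55 wild type group pairs, for 6 of 6 within p38α-/- MEFs and for 4 of 44 between the genotypes. The replicate number follows the scanning session, but for the second p38α-/- array with TNFα. A pairing of cultures can therefore not be told apart from the session. Alternatives were normexp (offset 50) with loess, the series matrix, marked spots kept, the mean of a gene's probes, dim spots left out, each array left out, the replicate block and, chosen after seeing the data, a term for the scanning session and values within a session.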

Additional observations from a re-analysis of the deposited data

Results flagged for a closer look

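Ephb2 had opposite signs on every array between some matched groups, which was not tested as a difference. The signs are against the pool, so they include any offset of the probe between the dyes. With anisomycin Ephb2 stayed below the pool after SB203580, at -0.20 and -0.10. With TNFα it was -0.23 and -0.13 in wild type MEFs and 0.01 and 0.19 after SB203580, a difference of 0.28, and 0.03 and 0.30 in p38α-/- MEFs, a difference of 0.35. With anisomycin it was -0.26 and -0.17 in wild type MEFs and 0.07 and 0.42 in p38α-/- MEFs, a difference of 0.46. The second Ephb2 probe gave 0.19 ± 0.40 (SD, n = 2) with TNFα in wild type MEFs, -0.14 ± 0.28 (SD, n = 2) after SB203580 and 0.01 ± 0.19 (SD, n = 2) in p38α-/- MEFs, and -0.36 ± 0.66 (SD, n = 2) and -0.13 ± 0.44 (SD, n = 2) with anisomycin in wild type and p38α-/- MEFs, so it did not show the same order with TNFα. The part of the probe in these differences was not tested.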

How the results depend on the processing

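The 14 pairs of a member and a group at 2-fold above the pool were 14 or 15 under the other settings and 13 to 15 with an array left out. The count 2-fold below, 0, became 1 with marked spots kept and lay between 0 and 1 with an array left out: without the first p38α-/- array with NaCl, Epha7 passed. Of the 91 member means, 24 moved by more than 1 SD with normexp and loess, 9 with the series matrix and 31 with the mean of the probes. None of those at 2-fold changed sign, but over all 91 the sign differed in 16 with the mean of the probes (Epha4 in p38α-/- MEFs with NaCl went from -0.20 to 0.53), in 5 with normexp and loess and in 2 with the series matrix. Family genes called above the pool, 8, were 14 with the series matrix and 5 with the mean of the probes (7 to 12 with an array left out), and those below, 22, were 13 with a term for the scanning session (19 to 22). Partners called above, 51, were 125 with the series matrix and 89 with marked spots kept (43 to 55), and those below, 36, were 124 and 143, and 55 with the mean of the probes (31 to 45). Calls with SB203580 stayed at 0 throughout, with an array left out as well (0 to 0). Calls between the genotypes, 0, were 1 with normexp and with dim spots left out, 6 with the series matrix, 5 with marked spots kept, 2 with the replicate block and 2 with the session term (0 to 1, the call appearing without either wild type array of NaCl for 8 h); all were Mmp14 and Sdc2, lower in p38α-/- MEFs. The causes were not tested. The replicate block moved no other count by over 1.5 times (family genes 12 above and 24 below, partners 57 and 46).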
